A study of Mus musculus with 8 samples.

Results

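The expression of 9 genes of the megakaryocyte and platelet program (Pf4, Itga2b, Gp1bb, Gp5, Gp9, Vwf, Treml1, Selp and Rab27b) was followed in single-cell RNA-seq of mouse bone marrow stem and progenitor cells before and after IFNα. They were chosen by symbol, and each of the 9 symbols matched exactly 1 of the 27998 genes in the count matrices. Their levels were measured per mouse and time point in a cluster of cells like hematopoietic stem cells (HSCs), with Hlf among its leading genes, and in a cluster of cells like megakaryocyte (MK) progenitors.

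All mice were Wildtype and 12 to 14 weeks old, and the study's methods name C57Bl/6 as the strain of its Wildtype mice. Treated mice received 1 subcutaneous dose of recombinant mouse IFNα (50000 IU for a body weight of 20 g), and marrow was taken 3, 24 or 72 h later, while control mice received 100 µl PBS. Each time point had 4 mice, told apart by hashtag antibodies and run together in 1 droplet library, so that library and time point cannot be told apart. The sort took lineage-negative, c-Kit positive (LK) cells and added LK CD150+ CD48- CD34- HSCs at a fixed ratio, so the share of HSCs among the cells was set by the sort.

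Megakaryocytes are the large marrow cells that shed platelets into the blood. They descend from HSCs through MK progenitors, and a fraction of HSCs already transcribes platelet genes, which is described as platelet bias of the stem cell. The proteins encoded by the 9 genes act at the platelet surface and in its granules. Gp1bb, Gp5 and Gp9 encode subunits of the GPIb-IX-V complex, the receptor for von Willebrand factor, whose ligand is the product of Vwf. Itga2b encodes integrin αIIb (CD41), the platelet part of the fibrinogen receptor. Pf4 encodes platelet factor 4, a chemokine of the alpha granules. Selp (P-selectin) and Treml1 encode receptors that lie in the alpha granule membrane until activation, and Rab27b encodes a small GTPase that directs granule secretion.

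After filtering, 10046 cells remained (2474 of control mice, 1661 from 3 h, 3462 from 24 h and 2449 from 72 h), and only 3 cell barcodes were shared between libraries. Kept cells per mouse ranged from 58 to 1240 and their summed unique molecular identifiers (UMIs) from 1102706 to 26446327. Control cells were clustered with the 9 genes left out, and treated cells took the label of their nearest control cells. The HSC-like cluster held 182 control cells and passed 234, 332 and 272 cells at 3, 24 and 72 h. The MK progenitor-like cluster held 278 control cells and passed 227, 493 and 365 cells. Control mouse 4 had 6 HSC-like and 9 MK progenitor-like cells, under the minimum of 10. In these classes, control levels per mouse, their means, the tests of levels and the UMI totals given beside those tests therefore rest on 3 mice. Shares and distributions over all cells of a class include its cells. The share of MK progenitor-like cells was compared with all 4 control mice, control mouse 4 among them.

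Both labels were described by their markers in control cells thinned to 5000 UMIs each. The clusters were named from these same marker lists, so the shares are no independent check of the names. Hlf was detected in 75.1% of HSC-like cells and in 31.2% of MK progenitor-like cells. Sdpr was detected in 32.0% and Plek in 37.5% of MK progenitor-like cells, against 12.1% and 13.9% of HSC-like cells. The MK marker F2rl2 was in only 9.29% of MK progenitor-like and 0.578% of HSC-like cells. The myeloid marker Mpo was in 32.0% and 35.8%. Ppbp, a chemokine of mature platelets, was found in 1.86% of MK progenitor-like cells. None of the 6 genes of a mature platelet list passed the filter on low counts in either class, and in MK progenitor-like cells the 6 genes summed to between 3.21 and 18.4 CPM (UMIs of a gene per 1000000 UMIs of all genes) in the control mice. All 5 interferon-stimulated genes of a check list rose in both classes at 3 h, with a median log2 fold change of 4.83 in HSC-like and 5.62 in MK progenitor-like cells.

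Positions of 8 of the genes are given on GRCm38 (GENCODE vM21, whole gene from start to end). The receptor subunits are Gp1bb at chr16:18620317-18622403 on the minus strand, Gp5 at chr16:30307685-30310779 on the minus strand and Gp9 at chr6:87778072-87779768 on the plus strand. Itga2b lies at chr11:102453297-102470122 (minus), Pf4 at chr5:90772435-90773383 (plus) and Vwf at chr6:125546774-125686679 (plus). Treml1 lies at chr17:48359916-48367176 (plus) and Selp at chr1:164115264-164150026 (plus). Gp1bb overlaps Sept5 on the same strand, so reads in the overlap are ambiguous between the genes and the counts of Gp1bb are uncertain. Selp overlaps Gm16587 and Gm16548 on the opposite strand.

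Of the 9 genes, 7 were matched in the RefSeq promoter table (GRCm38.p6); Vwf and Rab27b were not. In the 250 bases before the start site, 3 short motifs were searched on both strands: GATAA for GATA factors, AGGAAG for ETS factors, and, for the interferon-stimulated response element, 2 copies of GAAA with 2 bases between them. The ETS letters were present in 5 of the 7 promoters, against 29.5% of all 32851 promoters. The GATA letters were present in 2 of 7, against 22.6%. The interferon letters were present in 1 of 7 (Itga2b), against 2.98%. The 4 promoters printed here are those of Gp9, which fell in HSC-like cells, of Gp5, which had the lowest adjusted p in MK progenitor-like cells at 3 h, of Itga2b, which holds the interferon letters, and of the chemokine gene Pf4. Capitals mark the motif letters, in either orientation.
Gp9, chr6:87777820-87778069, plus strand: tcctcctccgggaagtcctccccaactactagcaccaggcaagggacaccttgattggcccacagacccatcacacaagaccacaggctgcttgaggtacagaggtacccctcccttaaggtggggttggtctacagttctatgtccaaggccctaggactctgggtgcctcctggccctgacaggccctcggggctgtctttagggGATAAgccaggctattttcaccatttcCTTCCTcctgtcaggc
Gp5, chr16:30310782-30311031, minus strand: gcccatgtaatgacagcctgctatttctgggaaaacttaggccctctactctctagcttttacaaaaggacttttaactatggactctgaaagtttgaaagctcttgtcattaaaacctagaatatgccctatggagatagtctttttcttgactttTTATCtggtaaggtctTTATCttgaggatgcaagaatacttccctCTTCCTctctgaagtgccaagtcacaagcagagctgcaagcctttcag
Itga2b, chr11:102469884-102470133, minus strand: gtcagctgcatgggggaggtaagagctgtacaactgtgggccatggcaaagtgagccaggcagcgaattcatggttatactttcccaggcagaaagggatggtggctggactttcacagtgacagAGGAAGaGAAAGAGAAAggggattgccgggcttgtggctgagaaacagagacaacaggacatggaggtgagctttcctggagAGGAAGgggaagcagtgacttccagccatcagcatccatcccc
Pf4, chr5:90772185-90772434, plus strand: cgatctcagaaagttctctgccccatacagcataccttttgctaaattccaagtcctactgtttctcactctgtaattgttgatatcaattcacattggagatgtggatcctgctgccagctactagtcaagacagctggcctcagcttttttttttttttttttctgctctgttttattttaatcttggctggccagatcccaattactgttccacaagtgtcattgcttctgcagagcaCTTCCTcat
In Gp9 the GATA letters begin at -43 and the ETS letters at -16 from the start site. Gp5 holds GATA letters at -93 and -77 and ETS letters at -48, all read on the opposite strand. The RefSeq start of Itga2b lies inside the gene as GENCODE gives it, so most of the printed bases, its motif letters included, are within that gene model. Itga2b holds ETS letters at -125 and -43 and the interferon letters at -118, which do not overlap, and Pf4 holds ETS letters at -9. A letter match describes the sequence and is not evidence that a factor binds there.

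Within the control mice, the highest level of 7 of the 9 genes lay in the MK progenitor-like cluster when counts were summed over all control cells of each of the 14 clusters. Levels are given in CPM per mouse, and they are compared between cells for 1 gene and not between genes. The clusters were built from these same cells, although without the 9 genes, so the levels are a description and carry no test.

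Among the receptor subunits, the level of Gp1bb in MK progenitor-like cells was 90.7 ± 4.94 CPM (SD, n = 3 mice), and it was 6.42 ± 3.00 in HSC-like cells. Gp5 was at 70.3 ± 24.8 in MK progenitor-like and at 11.9 ± 2.04 in HSC-like cells. Gp9 was at 70.03 ± 12.0 and 28.2 ± 2.30. Outside the MK branch, Gp5 stood at 24.1 ± 1.01 CPM in erythroid progenitor-like cells, where each of the 3 mice was above its HSC-like range. Gp9 stood at 15.5 ± 8.96 in the basophil, mast cell and eosinophil (Ba/MC/Eo) progenitor-like cells (range 5.71 to 23.3), below its HSC-like range of 25.6 to 29.6.

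Itga2b was abundant in Ba/MC/Eo progenitor-like cells as well as in MK progenitor-like cells. Its level was 169.7 ± 28.1 CPM in the MK progenitor-like class (range 139.6 to 195) and 129 ± 7.76 in the Ba/MC/Eo progenitor-like class (range 120.5 to 134). The latter joins a cluster led by Prss34, Prg2 and Mcpt8, at 161 CPM, and a cluster led by Gzmb and Scin, at 51.7 CPM. HSC-like cells had 35.9 ± 11.8 CPM. CD41, the protein it encodes, is used both as an MK marker and as an early marker of blood cells in general.

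For Pf4, MK progenitor-like cells had 1409 ± 545 CPM and HSC-like cells 95.4 ± 65.9, and no other named class had a mean above 8.32 ± 3.56. Over single clusters the highest Pf4 level, 1883 CPM, was in an unnamed cluster of 39 control cells led by Cd74 and MHC class II genes, where 2 cells held 99.8% of the 963 Pf4 UMIs. Its next levels were 1553 CPM in the MK progenitor-like cluster and 895 CPM in an unnamed cluster of 188 cells led by Nusap1, Mki67 and other genes of mitosis. Both unnamed clusters scored highest for MK progenitor markers but had none among their 10 leading genes, so they were not named. Treml1 had 74.2 ± 17.5 CPM in MK progenitor-like and 8.12 ± 4.32 in HSC-like cells.

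Rab27b had the highest HSC-like level relative to its MK progenitor-like level among the genes whose control mice did not overlap between both classes, with 31.3 ± 10.6 against 62.3 ± 9.37 CPM. Vwf was at 21.9 ± 5.72 CPM in HSC-like and 33.5 ± 13.5 in MK progenitor-like cells, and the mice of both classes overlapped. Selp was at 18.5 ± 2.65 CPM in HSC-like, 16.3 ± 13.9 in MK progenitor-like and 12.5 ± 1.77 in lymphoid-primed progenitor-like cells, so its level did not separate MK progenitor-like cells from the other immature classes.

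**Figure D1:**
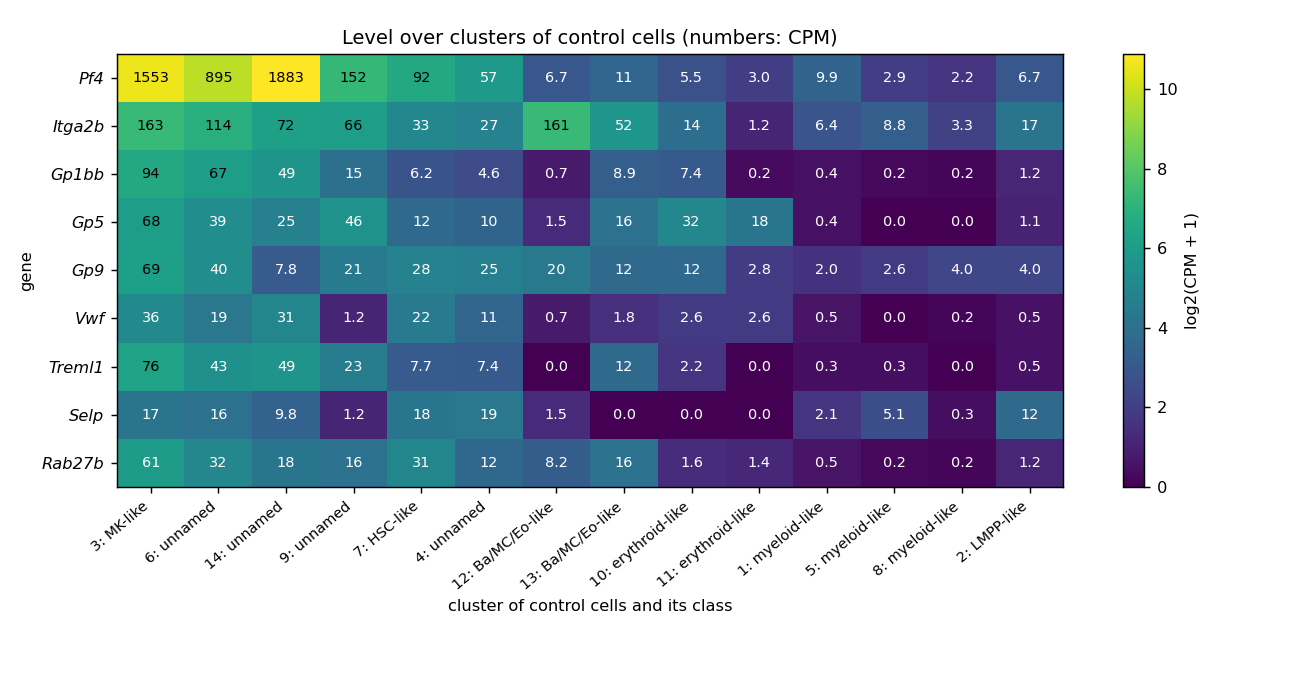
Level of each gene (rows) over the 14 clusters of control cells (columns, with class), as CPM of all control cells of the cluster (numbers) and as log2(CPM + 1) (colour). The MK progenitor-like column is highest for 7 genes, Itga2b is 163 CPM there and 161 in the first of the 2 Ba/MC/Eo progenitor-like columns, and Selp is 17.4 CPM in the MK progenitor-like column, 18.0 in the HSC-like column and 18.7 in unnamed cluster 4.

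Across the 14 clusters, the single genes followed the mean of the 9 to different degrees. The Pearson correlation of log2 CPM with the mean standardised level was highest for Rab27b (0.95), Gp1bb (0.95) and Treml1 (0.94) and lowest for Gp5 (0.79) and Selp (0.61). Outside the 9, the genes whose levels were most like that mean were Rbpms2 (r = 0.96), Sdpr (0.96), Ehd3 (0.95), Cdc42ep5 (0.93) and F2rl2 (0.92). Each of the 9 genes is part of that mean and the 14 clusters share a library, so these values are descriptive.

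Few of the transcripts were detected at once in a single cell at the depth used, and such shares depend on depth. With control cells thinned to 5000 UMIs (9 HSC-like and 9 MK progenitor-like cells were shallower and left out), 50.9% of HSC-like cells had no UMI of any of the 9 genes and 21.96% had UMIs of at least 2. In MK progenitor-like cells the shares were 21.6% and 57.6%, and in myeloid progenitor-like cells, used here as a background, 93.8% and 0.823%. That class was not free of all members. It had Itga2b at 5.88 ± 0.793 and Selp at 2.98 ± 1.26 CPM in control (SD, n = 4 mice). MK progenitor-like cells with a Pf4 UMI (107 of 269) carried the other genes more often than the 162 without, as with Gp1bb (43.0% against 8.64%), Treml1 (43.9% against 12.3%) and Itga2b (68.2% against 30.2%). Selp did not follow, with 7.48% of cells with Pf4 and 9.88% of cells without.

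At 3 h after IFNα, Gp9 and Rab27b fell in HSC-like cells, and no other member passed the test at any time in either class. UMIs were summed per mouse over the cells of a class, scaled with edgeR's TMM factors to CPM, and tested with edgeR's quasi-likelihood test. Genes were called when the p adjusted over all tested genes (Benjamini-Hochberg) was under 0.05 and the absolute log2 fold change over 1. In HSC-like cells, 7 of the 9 genes were tested among 7940, because Gp1bb and Treml1 had too few counts (12 to 18 and 15 to 37 UMIs per time point). Of these 7, 2 passed at 3 h, both lower, where 5.58% of all tested genes passed in either direction and 1.07% passed lower. An unadjusted p under 0.05 was found for 3 of the 7, and for 23.2% of all genes.

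Gp9, the smallest subunit of the GPIb-IX-V complex, had 28.8, 25.3 and 28.7 CPM in the HSC-like cells of the 3 control mice. At 3 h the 4 mice had 10.6, 10.8, 8.38 and 6.85 CPM, all below every control mouse. At 24 h they had 21.8, 24.7, 41.7 and 20.2 and at 72 h 40.3, 37.6, 24.3 and 47.0 CPM, both overlapping control. The log2 fold change at 3 h was -1.61 (SE 0.40, edgeR adjusted p = 0.0034), or 0.328 of the control level, and it rested on 54 UMIs in control and 15 at 3 h. At 24 h it was -0.03 (SE 0.27) and at 72 h 0.40 (SE 0.27), neither passing.

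Rab27b, the granule GTPase, had 19.6, 32.2 and 39.9 CPM in control HSC-like cells. At 3 h the values were 3.55, 2.69, 14.0 and 3.43 CPM, again below all control mice, with 3h mouse 3 above the other 3. The log2 fold change was -1.90 (SE 0.45, edgeR adjusted p = 0.0017), from 56 UMIs in control and 13 at 3 h. Of these 13, 10 came from 3h mouse 3 and 1 from each other mouse. Without 3h mouse 3 the value was -3.14 (adjusted p = 0.00028), which rests on 1 UMI per 3 h mouse, at the floor. When control and 3 h mice were fitted alone, Rab27b had too few counts to be tested. The later values ran from 10.04 to 26.8 CPM at 24 h and from 12.5 to 24.3 at 72 h, with log2 fold changes of -0.56 (SE 0.30, adjusted p = 0.50) and -0.52 (SE 0.32, adjusted p = 0.57).

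The share of HSC-like cells with a transcript moved the same way. At 5000 UMIs per cell, Gp9 was found in 18 of 173 control cells (10.4%, 95% Wilson interval 6.68 to 15.8) and in 9 of 208 cells at 3 h (4.33%, 2.29 to 8.02), and these intervals overlapped. Rab27b was found in 27 of 173 (15.6%, 10.95 to 21.8) and in 8 of 208 (3.85%, 1.962 to 7.40). Intervals cover counting error only, and cells of a mouse are not independent. In myeloid progenitor-like cells, whose median depth was 33843 UMIs in control and 24968 at 3 h before thinning, the same thinned shares were 0.823% and 0.760% for Gp9, and 0.274% and 0% (0 of 263 cells, which allows a share of up to 1.14% when 3 cells are taken as the limit, with a Wilson upper bound of 1.44%) for Rab27b. Without thinning, Gp9 was in 20.3% and 5.98% of HSC-like cells and Rab27b in 23.1% and 4.27%. Thinning removes more UMIs from the deeper myeloid progenitor-like cells. Unthinned, a Gp9 UMI was in 19 of 341, 13 of 208 and 22 of 180 control cells of the myeloid progenitor-like clusters. Rab27b was in 1 cell of each cluster. The part of this background in the HSC-like shares was not tested.

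The fall of Gp9 depended on which cells counted as stem cells. With both clusters that had Hlf among their leading genes, a definition chosen after the data were seen, the log2 fold change of Gp9 was -0.64 (adjusted p = 0.072) and that of Rab27b -1.17 (adjusted p = 0.0021). After clustering without any MK and platelet list gene the HSC-like cluster was larger (259 control cells and 364 at 3 h), and the values were -0.55 (adjusted p = 0.25) and -1.22 (adjusted p = 0.0035).

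Other measures moved with the same comparison. The median depth of HSC-like cells was 10276.5 UMIs in control and 7848 at 3 h. With cells thinned to equal depth neither gene passed, at -1.33 for Gp9 (adjusted p = 0.12) and -1.63 for Rab27b (adjusted p = 0.051). Thinning also removed UMIs and the shallower cells, so this fit had fewer counts and 5469 tested genes in place of 7940. Of 6 tested cell cycle genes, Mki67, Ube2c and Cenpf also fell, and the 8 listed genes summed to 165 to 352 CPM in control mice and 42.6 to 147 at 3 h. Their sum was 62.0 to 243 CPM at 24 h, where none passed. At 72 h it was 78.1 to 172 CPM, and Ube2c and Cenpf passed lower. Markers of MK progenitors summed to 82.9 to 101 CPM in control and 51.1 to 168 at 3 h over 8 genes, 1 of them at 0. Over thinned cells, the share of HSC-like cells with a UMI went from 75.1% to 63.9% for Hlf and from 26.0% to 19.7% for Procr, both HSC markers. It went from 13.9% to 24.5% for Plek, from 12.1% to 7.21% for Sdpr and from 35.8% to 17.3% for Mpo, a myeloid marker. The 12 listed myeloid markers, however, summed to 815 to 914 CPM in control mice and 940 to 1267 at 3 h. Of the 6 that were tested, Ms4a6c passed higher and Elane lower. The 8 listed HSC markers summed to 1579 to 1764 CPM in control mice and 2182 to 2782 at 3 h. Of these 8 genes only Ly6a passed, and it rose, while their median log2 fold change was -0.33. The part of these markers and lists in the result was not tested. Scaling by library size alone shifted the median of all genes at 3 h to -0.25 and changed the 358 higher and 85 lower calls to 285 and 228, and Gp9 (-1.81) and Rab27b (-2.10) passed there too.

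The other tested genes did not pass in HSC-like cells at 3 h. Gp9 and Rab27b were the 2 of 7 tested genes with every 3 h mouse below every control mouse, where 7.93% of all genes had this order and 18.8% had groups without overlap in either direction. Vwf, the receptor's ligand, had 16.1, 27.6 and 20.7 CPM in control mice and 10.6, 10.8, 16.8 and 10.3 at 3 h, where only 3h mouse 3 lay within the control range. Its log2 fold change was -0.62 (SE 0.42, adjusted p = 0.40), and at 72 h, with 19.5, 12.5, 10.2 and 6.26 CPM, it was -0.70 (SE 0.38, adjusted p = 0.50). Gp5 had a log2 fold change of -0.16 (SE 0.49) at 3 h and Selp of 0.39 (SE 0.39).

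Itga2b and Pf4 had positive values with wide spread. Itga2b had 21.9, 43.7 and 39.9 CPM in control HSC-like cells and 60.3, 16.1, 58.6 and 68.5 at 3 h, where 3h mouse 2 lay below the control mice and the other 3 above. Its log2 fold change was 0.62 (SE 0.31, adjusted p = 0.21). Pf4 had 59.9, 53.0 and 166 CPM in control and 74.5, 26.9, 356 and 51.4 at 3 h, a log2 fold change of 0.79 (SE 0.44, adjusted p = 0.29). Without control mouse 3 it was 1.498 (adjusted p = 0.062), and without 3h mouse 3 it turned to -0.93 (adjusted p = 0.27). It was -0.93 (adjusted p = 0.17) when the stem cells were restricted to those with an Hlf UMI.

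**Figure D2:**
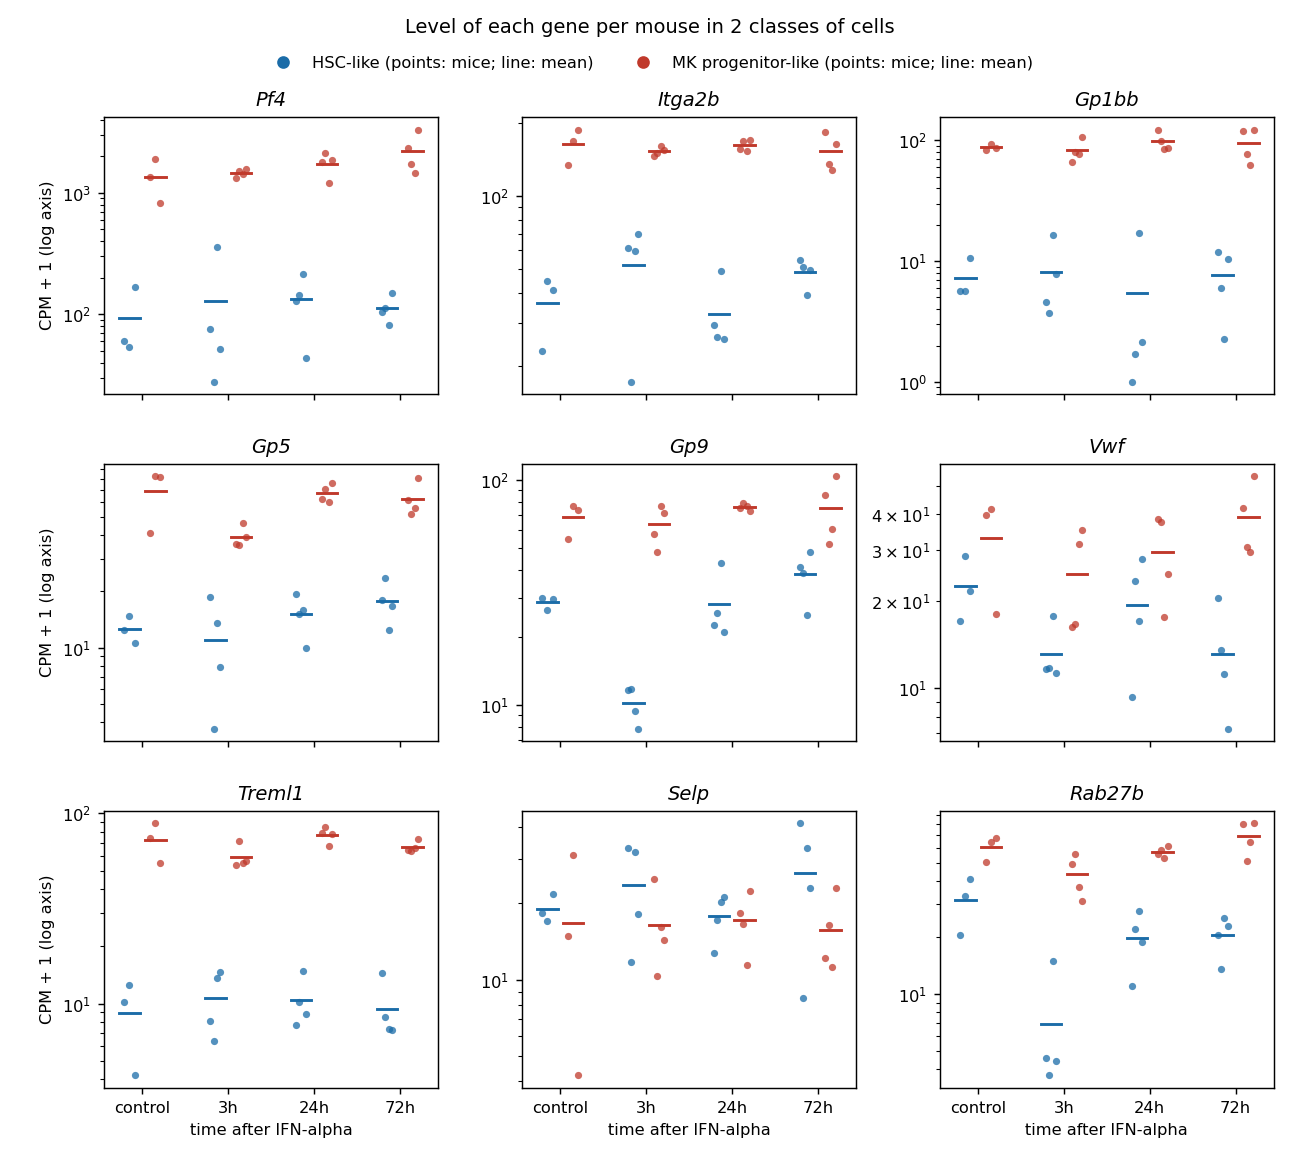
CPM (TMM scaled, plus 1, log axis) of each gene per mouse (points) and group mean (lines) in HSC-like (blue) and MK progenitor-like (red) cells of control mice and 3, 24 and 72 h after IFNα, with 3 control mice and 4 mice at each other time. The blue points of Gp9 and Rab27b at 3 h lie below all control points, while those of Pf4 run from 26.9 to 356 CPM.

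Most Pf4 UMIs of HSC-like cells lay in the highest 5% of the cells, less so at 24 and 72 h than in control and at 3 h. In control, 1 cell held 69 of the 180 UMIs and the 9 highest cells, about 5% of the class, held 75%. At 3 h, 1 cell held 109 of 301 UMIs and the 12 highest held 87.0%, while at 24 and 72 h the highest 5% held 54.8% and 54.3%. Over all cells thinned to 5000 UMIs, 17.3% of control HSC-like cells had a Pf4 UMI, as had 14.9% of those at 3 h, 28.1% at 24 h and 25.1% at 72 h. Per mouse these shares ranged from 16.4% to 18.5% in control, 11.1% to 31.4% at 3 h, 16.7% to 34.7% at 24 h and 19.0% to 38.1% at 72 h, so the 24 h mice overlapped control and the lowest 72 h mouse lay just above it. The share of all genes with such an order on this measure was not counted. Without thinning the shares were 24.7%, 18.4%, 41.0% and 34.9%. The share in myeloid progenitor-like cells also moved, at 0.823%, 0.380%, 2.59% and 1.34% thinned and 8.09%, 4.18%, 15.1% and 11.3% without thinning, and its part in the HSC-like share was not tested. In summed CPM, Pf4 did not pass at 24 h (0.52, SE 0.41, adjusted p = 0.71) or 72 h (0.24, SE 0.44, adjusted p = 0.91).

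**Figure D3:**
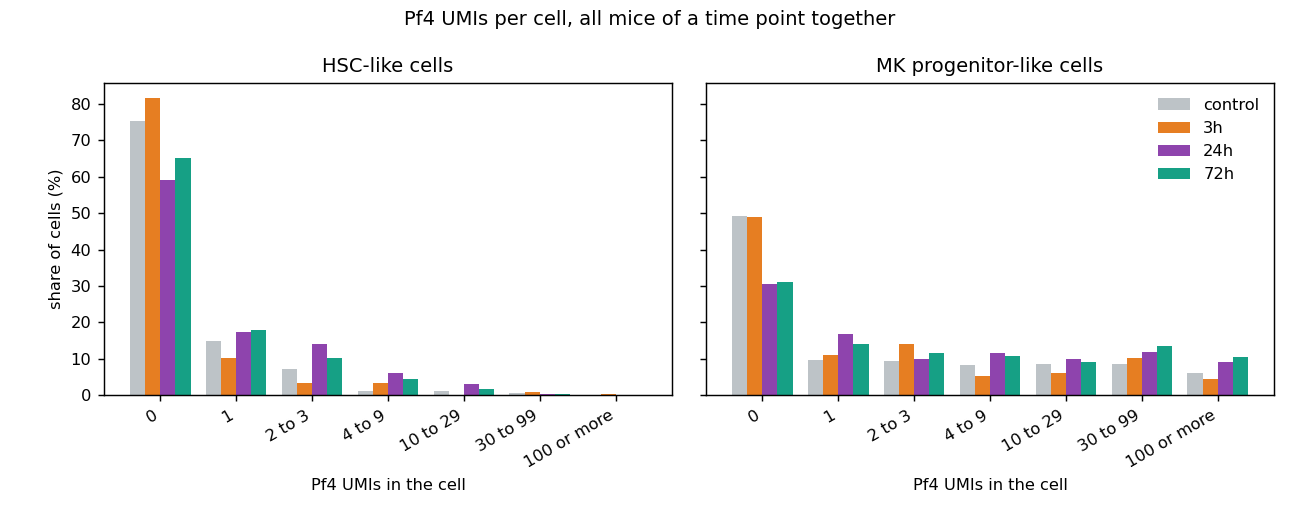
Share of cells (y axis, %) by the number of Pf4 UMIs in the cell (x axis), unthinned and with all mice of a time point together, in HSC-like (left) and MK progenitor-like (right) cells. In HSC-like cells, 75.3% of control and 59.0% of 24 h cells had none, and only 1 control cell had 30 or more. In MK progenitor-like cells, cells with 100 or more made up 6.12% in control and 10.4% at 72 h.

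At 24 and 72 h, none of the 7 tested genes passed in HSC-like cells by edgeR's quasi-likelihood test, where 0.705% and 0.718% of all genes did, and none had an unadjusted p under 0.05, beside 11.5% and 11.4% of all genes. DESeq2 also called none. No gene had groups without overlap, against 11.4% and 10.8% of all genes. The median log2 fold change of the 7 was -0.16 at 3 h, -0.06 at 24 h and 0.40 at 72 h, beside -0.04, -0.01 and -0.01 over all genes tested. Of the 7 listed markers of Ba/MC/Eo progenitors, only Cpa3 and Gzmb had enough counts to be tested in these cells. Both rose at 24 and 72 h. The 7 listed markers summed to 1.595 to 82.9 CPM in control mice, 19.3 to 409.9 at 24 h and 57.7 to 346 at 72 h, and their part in the values was not tested.

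In MK progenitor-like cells, no member passed at any time, although all 9 were tested among 8831 genes. The shares of all genes that passed were 4.19% at 3 h, 0.498% at 24 h and 0.623% at 72 h. With library size alone the 329 higher and 41 lower calls at 3 h became 273 and 140 and the median of all genes -0.20, with no member called. An unadjusted p under 0.05 was found for 2, 0 and 1 of the 9 genes, where 21.8%, 14.4% and 14.7% of all genes had one, and DESeq2 called none. No gene had groups that did not overlap, against 18.5%, 14.3% and 13.7% of all genes. The median log2 fold change of the 9 was -0.15, 0.04 and 0.17, beside -0.03, -0.00 and -0.01 over all genes.

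Gp5 at 3 h had an adjusted p under 0.05 without reaching a log2 change of 1, as did 11.2% of all genes at any fold. Its control mice had 39.9, 81.5 and 81.3 CPM, and the mice at 3 h had 34.9, 34.5, 45.6 and 38.0. Control mouse 1 lay within the range of the 3 h mice. The log2 fold change was -0.75 (SE 0.23, edgeR adjusted p = 0.024), from 245 UMIs in control and 91 at 3 h. Without control mouse 1 it passed at -1.07 (adjusted p = 0.00013), while without control mouse 2 the adjusted p was 0.19. Leaving out control mouse 3 gave 0.11, 3h mouse 1 gave 0.065, 3h mouse 2 gave 0.086 and 3h mouse 4 gave 0.052. Cells with at least 2 detected MK markers gave -0.43 (adjusted p = 0.32) and cells at equal depth -0.57 (adjusted p = 0.25). At 24 and 72 h its log2 fold changes were 0.04 (SE 0.17) and -0.06 (SE 0.18).

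Pf4 at 72 h was the other gene with an adjusted p under 0.05, as in 3.70% of all genes at any fold. The control mice had 1360.3, 1883 and 822 CPM and the 72 h mice 2331, 1728, 1449.7 and 3312, so the groups overlapped. The log2 fold change was 0.70 (SE 0.18, edgeR adjusted p = 0.020). Without control mouse 2 it passed at 1.00 (adjusted p = 0.00089). Without control mouse 3 it was 0.45 (adjusted p = 0.24), without control mouse 1 0.70 (adjusted p = 0.073), and DESeq2 gave an adjusted p of 0.19. Without 72h mouse 1 the adjusted p was 0.052 and without 72h mouse 4 it was 0.17 (0.44 on the log2 scale). The marker gate gave 0.45 (adjusted p = 0.064), clustering without the MK and platelet lists 0.59 (adjusted p = 0.071) and clustering with the members 0.38 (adjusted p = 0.28), while cells at equal depth gave 0.80 (adjusted p = 7e-06).

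Over cells thinned to 5000 UMIs, a Pf4 UMI was present in 40.1 ± 4.30% of control MK progenitor-like cells (SD, n = 3 mice). The share was 41.0 ± 5.18% after 3 h, 55.1 ± 3.35% after 24 h and 58.5 ± 6.43% after 72 h (n = 4). The control mice ranged from 35.8% to 44.4%, the 24 h mice from 51.7% to 59.5% and the 72 h mice from 50.7% to 63.9%. How many of all genes separate in this way on this measure was not counted, so the ranges describe a single member. An exact permutation test of 3 against 4 mice allows no p below 0.0571, so none was run. Without thinning the shares were 51.1 ± 4.12%, 50.7 ± 4.69%, 68.7 ± 3.46% and 68.8 ± 5.75%. The background in myeloid progenitor-like cells moved as given above for the HSC-like cells, and its part was not tested.

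Rab27b in MK progenitor-like cells at 3 h had 48.0, 54.8, 35.9 and 30.4 CPM against 49.3, 63.8 and 66.3 in control. The log2 fold change was -0.48 (SE 0.20, adjusted p = 0.13). Gp9 had a value of -0.07 (SE 0.20), with 56.7, 47.0, 76.0 and 70.4 CPM at 3 h against 53.8, 75.3 and 72.8 in control. Itga2b (-0.07, SE 0.12) and Gp1bb (-0.09, SE 0.19) also had small differences, Treml1 had -0.32 (SE 0.17), Vwf -0.47 (SE 0.33) and Selp -0.15 (SE 0.42).

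**Figure D4:**
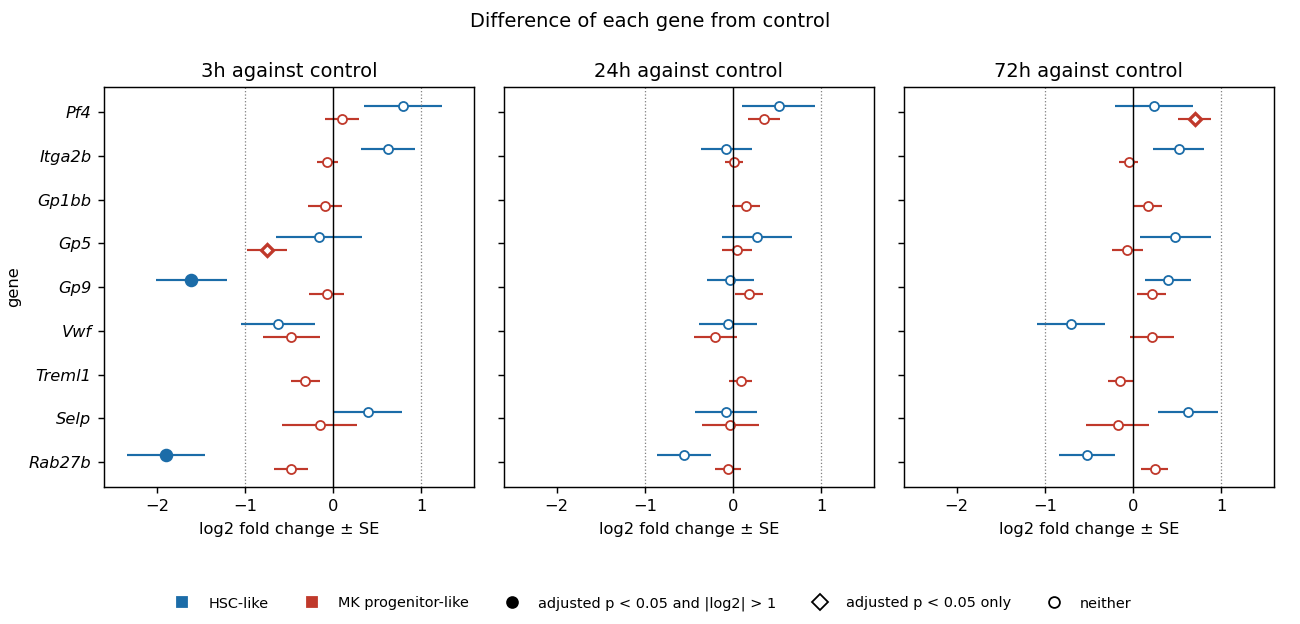
Log2 fold change against control (x axis, ± SE) of each gene in HSC-like (blue) and MK progenitor-like (red) cells at 3, 24 and 72 h, with filled symbols for genes that passed and diamonds for an adjusted p under 0.05 alone. Gp9 and Rab27b at 3 h are the filled symbols, at -1.61 and -1.90 in HSC-like cells, beside -0.07 and -0.48 in MK progenitor-like cells.

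The responses of both classes were then compared directly, as a difference of log2 fold changes within 1 edgeR quasi-likelihood fit of 8941 genes. At 3 h no member passed, where 0.0783% of all genes did, and 3 of 9 had an unadjusted p under 0.05, beside 7.24% of all genes. The response of MK progenitor-like minus HSC-like cells was 1.56 for Gp9 (SE 0.43, adjusted p = 0.15) and 1.38 for Rab27b (SE 0.48, adjusted p = 0.42). For Itga2b it was -0.71 (SE 0.30, adjusted p = 0.62). The difference was thus not called for either gene, and this does not show that both classes responded alike: its 95% interval, before adjustment, ran from 0.72 to 2.41 for Gp9 and from 0.44 to 2.32 for Rab27b. When both classes were restricted to cells that carried their own markers, the difference of Gp9 passed (1.95, adjusted p = 0.044) and that of Rab27b did not (adjusted p = 0.063). At 24 and 72 h no member passed, with 0.0447% and 0.0559% of all genes passing. At 24 h none of the 9 had an unadjusted p under 0.05, beside 5.47% of all genes. At 72 h Vwf (0.94, SE 0.44, adjusted p = 0.91), Rab27b (0.77, SE 0.33, adjusted p = 0.82) and Itga2b (-0.59, SE 0.28, adjusted p = 0.91) had an unadjusted p under 0.05, as did 5.38% of all genes.

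**Figure D5:**
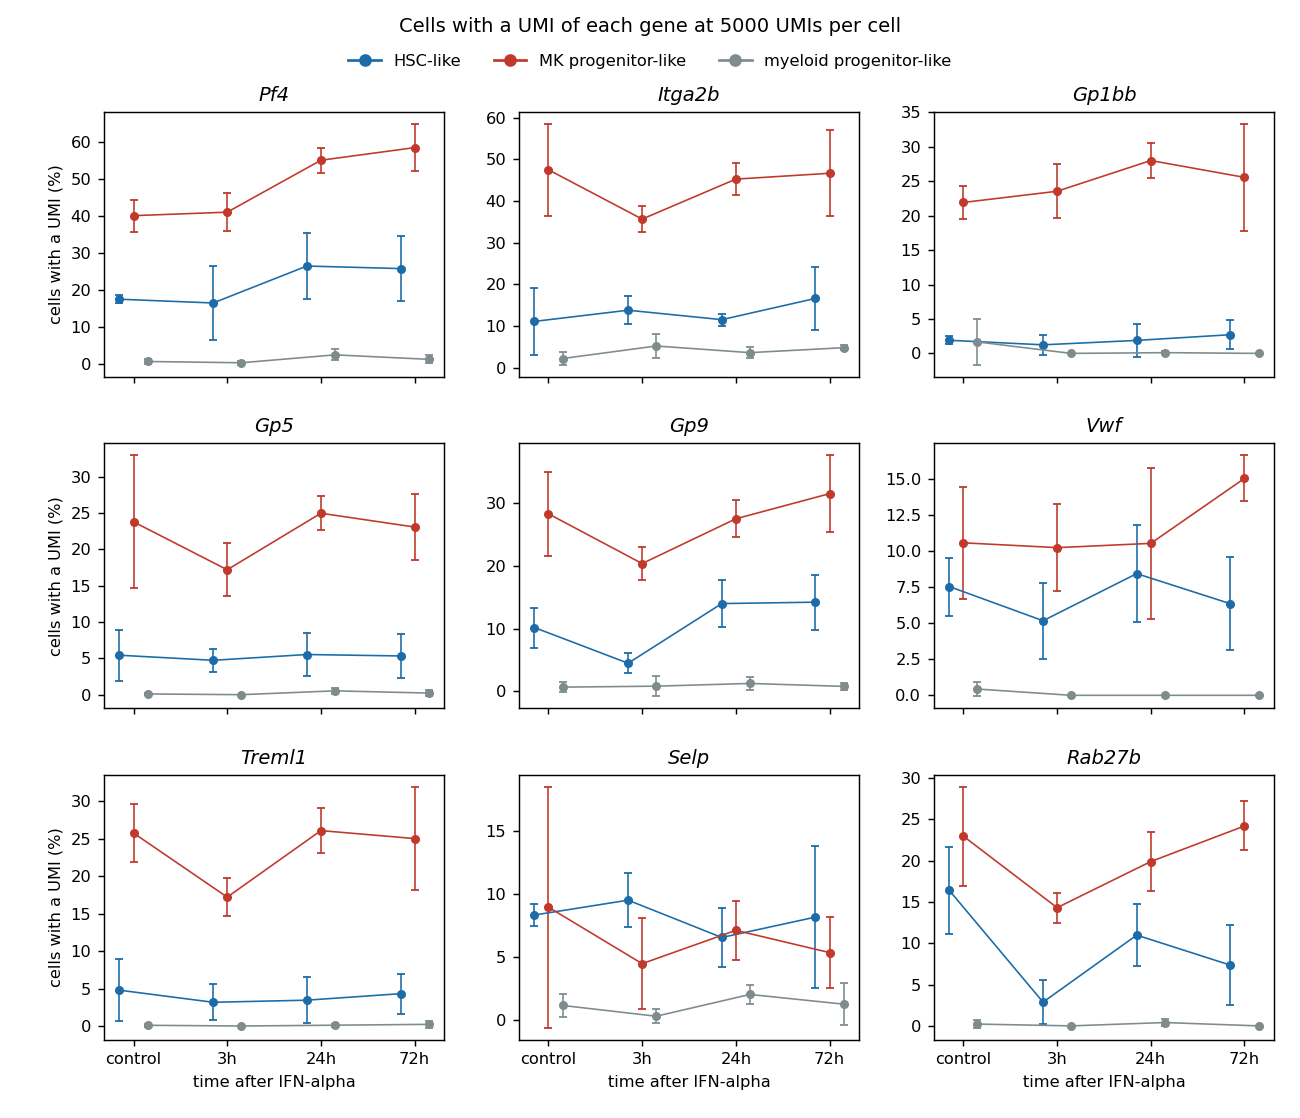
Share of cells with a UMI of each gene (y axis, %, cells thinned to 5000 UMIs) by time point in HSC-like, MK progenitor-like and myeloid progenitor-like cells, as mean ± SD over mice (3 control mice for the first 2 classes, 4 otherwise). Lines join groups of different mice. Rab27b in HSC-like cells goes from 16.4% in control to 2.87% at 3 h and Gp9 from 10.2% to 4.46%, while Pf4 in MK progenitor-like cells goes from 40.1% in control to 58.5% at 72 h.

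Beyond the 9 genes, 60 others of the MK and platelet program were listed by role: transcription factors, receptors and signalling, granule and secreted proteins, and cytoskeleton and eicosanoid enzymes. In HSC-like cells 40 were tested, and none passed at 24 or 72 h. At 3 h 1 fell, where 5.58% of all genes passed in either direction and 1.07% passed lower. That gene was Tbxa2r, the thromboxane A2 receptor, with 28.7 ± 3.29 CPM in control and 13.2 ± 4.09 at 3 h (log2 fold change -1.18, SE 0.36, adjusted p = 0.020). In MK progenitor-like cells 48 were tested, of which 2 passed at 3 h and 1 at 72 h, beside 4.19% and 0.623% of all genes. At 3 h that share is close to the share of all genes in either direction. Both list genes fell, but 2 genes give no direction for the lists. The calls over all genes were 329 higher and 41 lower, a split that changed with library size alone, as given above. In these cells at 3 h Tbxas1, the enzyme that makes thromboxane A2, fell from 68.6 ± 7.52 to 28.3 ± 10.3 CPM (-1.24, SE 0.20, adjusted p = 1.4e-05). Clu (clusterin) fell from 20.4 ± 6.92 to 10.4 ± 1.78 CPM (-1.02, SE 0.34, adjusted p = 0.041), and at 72 h Nbeal2, needed for alpha granules, fell from 16.9 ± 3.17 to 8.68 ± 3.26 CPM (-1.01, SE 0.29, adjusted p = 0.038). No gene of the 4 lists rose. All 14 transcription factors, Gata1, Gata2, Fli1, Runx1 and Nfe2 among them, were tested in both classes and none passed at any time, with a median log2 fold change at 3 h of -0.09 in HSC-like and -0.16 in MK progenitor-like cells.

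MK progenitor-like cells were compared as a share of kept cells that were not HSC-like, since the sort fixed the HSCs. A share is not a cell number and moves with the other cells. Myeloid progenitor-like cells were 729 of 2474 kept cells in control, 263 of 1661 at 3 h, 694 of 3462 at 24 h and 373 of 2449 at 72 h. The added sort gate could also hold cells outside the HSC-like cluster, which this denominator does not undo. The part of both was not tested. The control mice had a share of 13.4 ± 3.48% (SD, n = 4 mice). It was 16.2 ± 2.30% after 3 h, 15.6 ± 1.14% after 24 h and 16.6 ± 2.20% after 72 h. Single control mice had 14.4%, 12.8%, 8.97% and 17.3%, the last from 9 of 52 cells of control mouse 4, and the 72 h mice had 18.5%, 16.1%, 13.8% and 18.2%, so the groups overlapped. Two-sided exact permutation tests gave p = 0.26, 0.31 and 0.17 for the 3 times (adjusted p = 0.31 for each), where 4 against 4 mice allow none below 0.0286. Without control mouse 4 the exact permutation p was 0.11, 0.057 and 0.11, where 3 against 4 mice allow none below 0.0571. At 24 h every mouse (14.5% to 16.8%) lay above the other control mice, so the overlap with control there rested on control mouse 4. After clustering without the MK and platelet lists, the differences were 4.66, 4.32 and 6.17 percentage points, each with the smallest p of the exact permutation test, 0.0286. The denominator also moved the differences, to 7.61, 4.09 and 8.06 points without HSC-like and unnamed clusters (exact permutation p = 0.086, 0.17 and 0.057), and to 5.40, 3.53 and 5.93 points without both clusters led by Hlf, a denominator chosen after the data were seen (exact permutation p = 0.086, 0.14 and 0.057). Without the cells of highest Scrublet score, a doublet score, they were 3.45 and 3.14 points at 3 and 24 h, each again with the exact permutation p = 0.0286, and 3.97 points at 72 h (p = 0.086), so this comparison depended on which cells were counted and how they were labelled.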

How the data were processed

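RNA was counted in single sorted marrow cells of 16 mice, 4 hashtagged mice to each of 4 libraries. The authors aligned reads to mm10 with Cell Ranger 3.1.0 and deposited raw UMI counts per gene and barcode. The gene annotation behind the counts is not given in the sources used here. They also deposited Seurat's hashtag calls, hashtag counts and a margin score that was not used. Kept barcodes had a single hashtag, at most 5% mitochondrial UMIs and at least 700 genes. Hashtag multiplets were removed, while doublets within a mouse remain, apart from an alternative by Scrublet score.

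Control cells were clustered with Scanpy 1.11.5 and leidenalg 0.10.2 (500 variable genes without the 9 members, 10 principal components, 15 neighbors, Leiden resolution 0.8), and labels were transferred by mutual nearest neighbors, with component scores rounded so that labels do not vary between runs (before rounding, the number of clusters, the class sizes and some calls under alternatives varied with numerical precision). A cluster took the class of its best scoring markers if at least 1 was among its 10 leading genes and no other class had more there. UMI counts were summed per mouse and class (at least 10 cells) and tested with edgeR 4.0.16 under R 4.3.3 (filterByExpr, TMM, quasi-likelihood F test over all time points together). The fits were also run on simulated counts. For the difference between classes, the changed genes were drawn from those that passed the filter in both classes, and not all were recovered. Its power for genes with low counts in 1 class, such as Gp1bb and Treml1, was not measured. DESeq2 1.42.0 was an alternative. Shares of MK progenitor-like cells were compared with exact permutation tests. Shares of cells with a UMI used cells thinned to 5000 UMIs. Further alternatives were other scalings, filters, class definitions and leaving out each mouse. Each mouse used gave 38 to 123 HSC-like cells, so low counts limit the precision of single genes.

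All 9 members were named. Of the other MK and platelet lists, up to 6 passing genes per class and time were named. The members and lists were chosen with earlier results of these data known. Same-numbered mice did not deviate together (correlations of -0.093 to 0.058 in HSC-like cells), so numbers were not used as pairs. Promoters came from the RefSeq table for GRCm38.p6.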

Additional observations from a re-analysis of the deposited data

Results flagged for a closer look

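In 52 groups of 4 mice tested for a single distant mouse, 5 had a gap above Dixon's critical value. For independent groups chance gives about 1 in 20, but these are not independent, since genes of a class share mice and cells. In HSC-like cells at 3 h, mouse 3 stood above the other 3 mice for Pf4 (356 CPM), Vwf (16.8 CPM) and Rab27b (14.0 CPM). It held 101 of the 234 HSC-like cells at 3 h. In HSC-like cells at 24 h, mouse 3 stood above the others for Itga2b (48.1 CPM). Gp1bb there was at 16.05 CPM in mouse 3 and at 0 to 1.12 CPM in the others. Its counts were too low for the test of levels, and it is not among the 5. In MK progenitor-like cells at 3 h, mouse 2 stood above the others for Treml1 (70.5 CPM).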

How the results depend on the processing

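Of the 2 members that passed in HSC-like cells at 3 h, 1 passed with the likelihood ratio test of 1 time point at a time (Gp9, as Rab27b had too few counts to be tested there). With clustering also without the MK and platelet lists, or with both clusters led by Hlf (chosen after seeing the data), 1 passed (Rab27b in each), where Gp9 had values of -0.55 and -0.64, and with cells thinned to equal depth 0 passed (-1.33 and -1.63). The other 9 alternatives, among them DESeq2 and library size alone, gave 2. Leaving out 1 mouse gave 2 each time in HSC-like cells at 3 h, 0 to 1 in MK progenitor-like cells at 3 h (Gp5 without control mouse 1) and 0 to 1 at 72 h (Pf4 without control mouse 2). At 24 h in both classes and at 72 h in HSC-like cells, every alternative gave 0. The members whose response differed between classes at 3 h numbered 1 with the marker gate (Gp9), and 0 in the other alternatives. The difference in the share of MK progenitor-like cells was 4.66 (3 h), 4.32 (24 h) and 6.17 (72 h) percentage points with clustering also without the MK and platelet lists, and 3.45 (3 h) and 3.14 (24 h) without the highest Scrublet scores, each with p = 0.0286 by exact permutation. Without 1 mouse it ranged from 1.34 to 4.11 at 3 h, 0.772 to 3.55 at 24 h and 1.82 to 4.59 at 72 h. The highest value at each time was the one without control mouse 4 (exact permutation p = 0.11, 0.057 and 0.11). The median share of cells with a UMI of a member was 14.1% at 5000 UMIs, 8.44% at 3000 and 22.7% without thinning, so these shares are set by depth. Of 1943 fold changes and differences of single members under alternatives, 4 were weaker, 3 stronger and none reversed with a test passed, while 133 changed sign without passing. Same-numbered mice of different time points do not come from the same animal, and over 21 such pairs per class none had a correlation of deviations over 0.1. With the replicate number as a block, 2 members passed in HSC-like cells at 3 h (Gp9 -1.61 and Rab27b -2.04) and none elsewhere. Gp1bb and Treml1, not tested in HSC-like cells, did not pass without the filter on low counts. The causes of these changes were not tested.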

Other observations

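Outside the 2 classes that the report follows, the 9 genes had further sites of transcript. An unnamed cluster of 188 control cells led by Nusap1, Prc1 and Cenpf had Gp1bb at 66.6, Treml1 at 43.1 and Gp9 at 39.6 CPM. It scored highest for MK progenitor markers but had none among its 10 leading genes. Its cells were therefore outside the MK progenitor-like tests and counted in the denominator of the MK progenitor-like share. An unnamed cluster of 148 control cells led by Trib2 and St8sia6 had Gp5 at 46.5 and Itga2b at 65.8 CPM beside Vwf at 1.21 and Selp at 1.21 CPM. In lymphoid-primed progenitor-like cells, Itga2b was at 16.8 ± 6.20 CPM in control (n = 3), 27.4 ± 6.71 at 3 h, 31.9 ± 6.99 at 24 h and 22.6 ± 3.34 at 72 h (SD, n = 4). Pf4 was at 6.30 ± 2.18, 12.2 ± 8.55, 23.6 ± 16.3 and 8.37 ± 0.572 CPM in the same cells. These values were not tested.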
